A study of Mus musculus with 3 samples.

Results

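The genes described here encode the proteins of the cytosolic ribosome. They were taken by name: every gene whose symbol on the array's annotation begins with Rpl, Rps or Rplp followed by a digit, S6 kinase genes left out, and that is read by at least 1 probe set annotated to that gene alone. The rule gave 48 genes, read by 99 such probe sets, out of 12393 named genes on the array. They comprise 20 large subunit genes, 2 of the stalk, 19 small subunit genes, 6 paralogs or relatives of subunit genes and 1 pseudogene. Of 76 canonical subunit genes, 41 are thus covered. Another 27 are read only by probe sets that the annotation shares with pseudogenes or other genes, and 8 are on no listed probe set. Rplp1, Rpl5 and Rps27a, which encodes a ubiquitin fusion, are among those not covered.

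Total RNA came from RAW264.7, a macrophage line of mouse origin transformed by a leukaemia virus, after 0, 2 and 12 h of lipopolysaccharide (LPS), a component of the Gram-negative outer membrane that is sensed through Toll-like receptor 4. Each time was 1 array of 1 RNA sample, and 0 h of LPS was the control. The labels give the 3 arrays the same line and RNA preparation and no LPS dose. No untreated culture at 2 or 12 h was among them, so time in culture and LPS cannot be told apart. Without replicates no difference between times could be tested, and words such as "higher" compare single arrays. Values are probe set signals on a linear scale, brought to a common trimmed mean on each array, so that they are shares of what the array saw rather than amounts per cell. A bulk signal also cannot tell a smaller share of cells from less RNA per cell.

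A ribosome is assembled from ribosomal RNA and about equal numbers of copies of each of its proteins, so the genes for these proteins are kept at balanced output. Their mRNAs are among the most abundant of a cell. They begin with a cytidine followed by a run of pyrimidines, the terminal oligopyrimidine (TOP) tract, through which mTORC1 and the RNA-binding protein LARP1 set how strongly they are translated. In macrophages, Toll-like receptor signals act on mTORC1 and on ribosome loading of selected mRNAs, and an array of total RNA sees mRNA level but not translation.

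The start sites of 8 members that the results turn on are shown first, because the tract at the start is the sequence feature the family is known for. They are RefSeq windows of build GRCm38.p6, from 60 bases before to 20 bases from the annotated start, each written 5′ to 3′ on the gene's strand. Capitals mark a pyrimidine run of at least 5 bases that starts within 5 bases of the annotated start, and any match to the ETS factor motif CCGGAAG or its complement CTTCCGG. Rpl41, Rpl22, Rps27 and Rpl27a had the widest differences between arrays. Rps27l is a paralog whose 3 probe sets agree at 12 h, and Rpl35, Rps10 and Rplp2 are subunit genes with little difference.
Rpl41, chr10:128549149-128549228, minus strand: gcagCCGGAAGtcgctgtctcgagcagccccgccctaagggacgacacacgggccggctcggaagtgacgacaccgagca
Rpl22, chr4:152324376-152324455, plus strand: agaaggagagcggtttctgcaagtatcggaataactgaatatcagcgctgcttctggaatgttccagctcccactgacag
Rps27, chr3:90213629-90213708, minus strand: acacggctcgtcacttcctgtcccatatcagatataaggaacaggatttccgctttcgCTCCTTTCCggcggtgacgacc
Rpl27a, chr7:109519135-109519214, plus strand: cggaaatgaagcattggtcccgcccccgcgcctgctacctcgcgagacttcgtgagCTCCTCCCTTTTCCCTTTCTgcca
Rps27l, chr9:66946026-66946105, plus strand: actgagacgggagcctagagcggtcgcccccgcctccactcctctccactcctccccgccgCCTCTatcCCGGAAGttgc
Rpl35, chr2:39005112-39005191, minus strand: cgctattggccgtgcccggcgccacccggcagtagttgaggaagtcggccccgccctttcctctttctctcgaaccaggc
Rps10, chr17:27635225-27635304, minus strand: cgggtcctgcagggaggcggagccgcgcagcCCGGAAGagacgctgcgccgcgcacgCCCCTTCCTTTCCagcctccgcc
Rplp2, chr7:141447591-141447670, plus strand: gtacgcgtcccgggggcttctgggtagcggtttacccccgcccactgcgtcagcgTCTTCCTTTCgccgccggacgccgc

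The pyrimidine run is 20 bases long at Rpl27a, 13 at Rps10, 10 at Rplp2, 9 at Rps27 and 5 at Rps27l. Rpl35 has a run of 18 bases that begins 7 bases before the annotated start, outside the limit, and is left in lower case. No run of 5 bases starts near the annotated start of Rpl41, nor at the Rpl22 start shown. Windows were found for 41 members, 49 windows in all because some genes have several starts. Of these, 17 windows (34.7%) hold a run that begins within the limit, against 22.0% of the 32851 windows of all genes in the table. The ETS motif, searched on both strands over the whole 300 bases from 250 before the start, is in 20 of the 49 member windows (40.8%), against 8.86% of all windows. The motif AAGATGGC or its complement GCCATCTT, bound by the factor YY1, is in 4 of them (8.16%), against 2.75%, and Rps27, Rpl22, Rpl13a and Rpl7l1 hold it. These shares describe letters in a window whose position depends on the annotated start. They do not show binding.

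Of the 48 members, 44 were at or above the floor on all 3 arrays and 4 were under it on all 3. The floor is a signal of 34.96, the 40th percentile of all scaled values. The 4 under it were Rpl3l, a muscle paralog of Rpl3 (signals 17, 3.3 and 15.7 at 0, 2 and 12 h), Rpl39l, a testis paralog of Rpl39, Rps4l and the pseudogene Rps15a-ps6. No difference is given for them. The median signal of the 44 measured members was 3310 at 0 h, 3289 at 2 h and 3525 at 12 h. Together the members held 5.09% of the summed signal of all named genes at 0 h, 4.76% at 2 h and 4.99% at 12 h, so the share was lowest on the 2 h array. Under quantile normalization the shares were 5.17%, 4.90% and 4.78%, lowest at 12 h, so the order of the later times depended on the scaling.

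**Figure D1:**
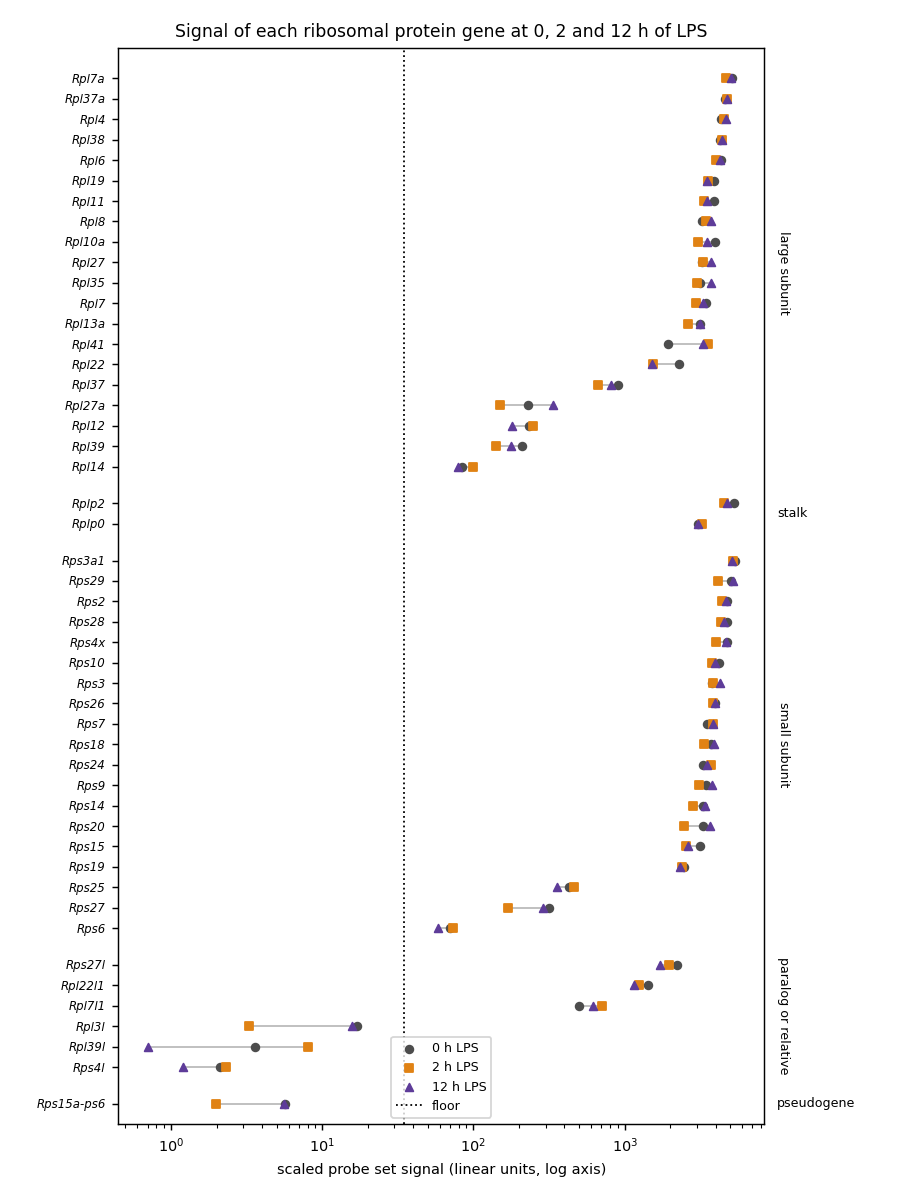
Scaled probe set signal of each of the 48 members (rows, ordered by role and mean signal) on a log axis at 0 h (circles), 2 h (squares) and 12 h (triangles) of LPS, 1 array each; the dotted line is the floor of 34.96. The 3 symbols nearly coincide for most members above a signal of 1000, while Rpl41, Rpl27a and Rps27 are spread; a gene's place on the axis depends on its probes and is not its mRNA level.

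At 2 h of LPS the members differed little from 0 h. The median log2 difference of the 44 measured members was -0.12, beside -0.10 for all 8422 measured genes. No member reached 2-fold in either direction, whereas 2.09% of all measured genes were 2-fold higher or more and 1.69% were 2-fold lower or more. At a fold of 1.5, 1 member was higher (5.60% of all measured genes) and 2 were lower (9.64%), so 41 of 44 lay within 1.5-fold. Of the 44, 29 were below their 0 h signal (65.9%, against 62.4% of all measured genes) and 15 above. With the arrays set to one median this became 20 below and 24 above, with a list median of 0.02, so the sign of the small common difference depended on the scaling. That scaling took the median of all measured genes from -0.10 to 0.03. The SD of log2 differences over members was 0.29, against 0.50 over all measured genes. Lists described below had similar or other values. The SD was 0.30 over mitochondrial ribosomal protein genes, 0.29 over initiation factor genes and 0.20 over other genes with TOP mRNAs. It was 0.38 over ribosome biogenesis genes and 0.61 over the brightest 10% of all named genes.

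At 12 h the members were again close to their 0 h signals, with a median log2 difference of -0.02 beside -0.05 for all 8629 measured genes. As scaled here, 56.8% of members and 54.7% of all measured genes were below 0 h. Under quantile normalization the members' median was -0.14, beside -0.02 for all genes, and 34 of 44 members were below 0 h. The share of all genes below 0 h was not counted under that scaling. By the values as scaled here, no member was 2-fold higher or lower, with 3.01% and 2.40% of all measured genes past that fold. One member, Rpl41, was at least 1.5-fold higher (8.32% of all measured genes) and 1 member, Rpl22, at least 1.5-fold lower (10.3%), a call that ended with arrays set to one median and with a pseudocount. Between 2 and 12 h the median was 0.07, beside 0.05 for all 8467 genes. From 2 to 12 h, Rpl27a was 2.23-fold higher, the only member past 2-fold in any comparison (2.65% of all measured genes), and Rps27 was the other one past 1.5-fold (10.2%). No member was 1.5-fold lower (6.45%) or 2-fold lower (1.98%) at 12 h than at 2 h. The lowest of the 3 signals was on the 2 h array for 23 of 44 members, or 52.3%, against 40.4% of all measured genes. With the arrays set to one median that count was 13, and under quantile normalization it was 14. The share of all measured genes was not counted under either scaling.

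**Figure D2:**
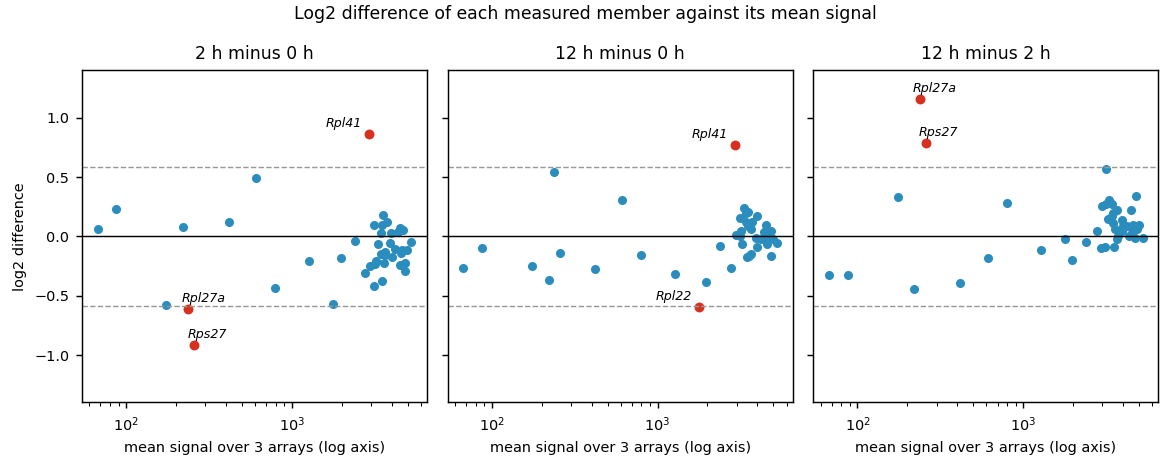
Log2 difference of each of the 44 measured members (points) against its mean signal over 3 arrays (log axis) for the 3 comparisons; dashed lines mark 1.5-fold and red points lie past them. The 35 members with a mean signal of at least 1000 lie within 1.5-fold except Rpl41 and Rpl22, with Rps20 near the line at 0.57 from 2 to 12 h, and the 9 under 1000 spread further, with Rps27 at -0.92 at 2 h and Rpl27a at 1.16 from 2 to 12 h.

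By SD, the differences were spread wider among the dimmer members. Of the 44, 35 had a mean signal of at least 1000, a limit chosen after the values were seen, and their differences had an SD of 0.23 at 2 h, 0.22 at 12 h and 0.15 between 2 and 12 h. The 9 dimmer members had SDs of 0.47, 0.30 and 0.58. At 12 h, however, all 9 lay within 1.5-fold of 0 h, against 81.3% of all measured genes. The members past that fold, Rpl41 and Rpl22, were among the brighter 35. Of the dimmer 9, 8 are read by a probe set with no suffix, one that matches a single transcript by design. The ninth, Rpl37, is read by an x-type probe set, one whose probes may also bind other transcripts. Of the 35 brighter members, 31 are read by suffixed probe sets, with the suffix a, x or s. For many, such as Rpl11, Rplp2 and Rps3, it is a, which is not the x type of Rpl37. How much other transcripts add to the suffixed probe sets was not tested. Rps6, the substrate of the S6 kinases, illustrates the dim case. Of its 2 single-gene probe sets, 1 was under the floor and the other read 70.2, 73.2 and 58.5 at 0, 2 and 12 h. What part of the ribosomal protein mRNA such dim probe sets read was not tested.

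The stalk proteins recruit elongation factors to the ribosome. Rplp0, whose mRNA is often used as a reference in quantitative PCR, had signals of 3054 at 0 h, 3261 at 2 h and 3068 at 12 h. The 3 values lie within 1.07-fold of each other. Rplp2 had 5283, 4532 and 4722, highest at 0 h and 1.17-fold lower at 2 h.

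In the large subunit the median log2 difference of 20 members was -0.11 at 2 h and -0.02 at 12 h. Rpl41, which encodes a very short basic peptide, had signals of 1947, 3542 and 3312 and was 1.82-fold higher at 2 h and 1.70-fold at 12 h. Its 4 probe sets did not go one way. The probe set next in brightness read 1882, 2090 and 2259, a log2 difference of 0.15 at 2 h and 0.26 at 12 h. The 2 dim ones gave -0.04 and -1.22 at 2 h and -0.64 and -0.41 at 12 h. The direction of Rpl41 therefore depends on the probe set, and by the median over its 4 probe sets it was at 0.05 at 2 h and -0.19 at 12 h.

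Rpl22 encodes an RNA-binding protein of the large subunit that is dispensable in most mouse tissues. Its signals were 2285, 1540 and 1515, lower at both later times, by 1.48-fold at 2 h and 1.51-fold at 12 h. The probe set used has no suffix. The other one, whose suffix marks probes shared between transcripts, read 131, 100 and 35.1, so both were lower at 2 h and at 12 h, but from 2 to 12 h the dimmer one was lower by a log2 difference of -1.51 and the one used by -0.02. For the probe set used, the 12 h difference was -0.55 with arrays set to one median and -0.58 with a pseudocount, both inside 1.5-fold. Rpl22l1, the paralog that can take its place in the ribosome, had 1430, 1239 and 1146, a log2 difference of -0.21 at 2 h and -0.32 at 12 h. The paralog pair thus had its highest signal at 0 h and its lowest at 12 h by every probe set read.

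Rpl27a had signals of 229, 150 and 335, lowest at 2 h and highest at 12 h, and its other probe set was under the floor throughout. Rpl39, at the peptide exit tunnel, had 210, 140 and 176, a log2 difference of -0.58 at 2 h, just inside 1.5-fold. Rpl12 had 233, 246 and 181, and Rpl14 had 84.1, 98.9 and 78.7, both highest at 2 h. Each of these 4 genes rests on 1 measured probe set with a mean signal under 1000.

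Rpl11, which with Rpl5 can bind the p53 regulator Mdm2 when ribosome assembly is disturbed, had 3914, 3345 and 3495, within 1.17-fold of each other. Rpl13a takes part in a complex that silences inflammatory mRNAs in interferon-treated human myeloid cells. It had 3132, 2637 and 3153, and its 4 probe sets gave log2 differences from -0.35 to 0.01 at 2 h and from -0.28 to 0.22 at 12 h. Rpl35 was read by 6 probe sets, 5 of them bright. The bright 5 gave -0.07 to 0.18 at 2 h and 0.14 to 0.24 at 12 h, so all 5 were slightly above 0 h at 12 h. The remaining large subunit members with mean signals of at least 1000, such as Rpl4, Rpl10a and Rpl38, were within 1.30-fold of 0 h at both times, with Rpl10a the furthest.

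In the small subunit the median of 19 members was -0.14 at 2 h and -0.02 at 12 h. At 12 h all 19 lay within 1.21-fold of 0 h. Rps27, a zinc finger protein of the small subunit, had the largest difference from 0 h of any member as scaled here, while with arrays set to one median Rpl41 was further, at 1.01 against -0.78. Its signals were 318, 168 and 289, 1.89-fold lower at 2 h and back near the first value at 12 h. It was read by 1 single-gene probe set. With a pseudocount of 32 in place of the floor its value at 2 h stayed past 1.5-fold, as it did under every scaling tried.

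Rps20, which binds ribosomal RNA in the head of the small subunit, had 3308, 2472 and 3672, 1.34-fold lower at 2 h. Its other bright probe set read 2653, 2817 and 2821 and did not dip at 2 h. Rps24 had 3312, 3748 and 3522 by the probe set used. Its 5 measured probe sets gave log2 differences from -0.70 to 1.07 at 2 h, the highest from a dim one with signals of 36, 75.7 and 72.4. At 12 h its 4 bright probe sets gave 0.03 to 0.09. Rps29, another zinc-binding subunit, had 5076, 4137 and 5234, while its other 2 probe sets were at -0.02 and -0.03 at 2 h.

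Rps3 lies at the mRNA entry of the ribosome and has also been described as a partner of nuclear NF-kB. It had 3786, 3866 and 4254, within 1.12-fold of 0 h at both times. Rps25 had 430, 466 and 355, lowest at 12 h. Rps18 and Rps19 had 3743, 3351 and 3912, and 2466, 2397 and 2324. By these probe sets neither differed by more than 1.12-fold from 0 h. The other 2 bright probe sets of Rps18 were above 0 h at 2 h, by log2 differences of 0.29 and 0.17, opposite in sign to the one used.

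Of the 6 paralogs and relatives, 3 were measured. Rps27l, a p53-responsive paralog of Rps27, had signals of 2234, 1965 and 1706. Its 3 probe sets were at 0.00, -0.13 and -0.19 at 2 h and at -0.39, -0.41 and -0.43 at 12 h, so all 3 were lowest at 12 h. All 3 are suffixed, and the one used is of the x type, whose probes may also bind other transcripts. Rps27 itself was lowest at 2 h. Rpl7l1, a relative of Rpl7 found in the nucleolus, had 502, 704 and 620. Its 2 probe sets gave 0.49 and 0.32 at 2 h and 0.30 and 0.13 at 12 h, both highest at 2 h. Among these 3 genes, Rpl7l1 was thus above 0 h and Rpl22l1 and Rps27l were below, and no difference reached 1.5-fold as scaled here. With arrays set to one median Rpl7l1 was past it at 2 h, at 0.63.

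**Figure D3:**
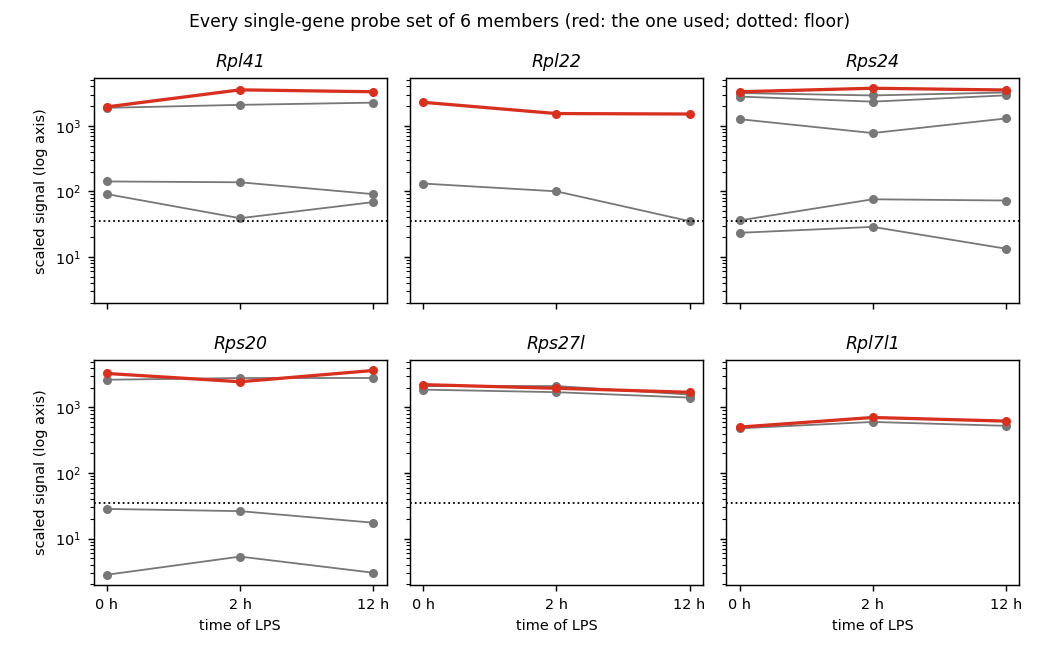
Scaled signal (log axis) at 0, 2 and 12 h of every single-gene probe set of 6 members, with the probe set used in red and the floor dotted. All 3 probe sets of Rps27l are lowest at 12 h and both of Rpl7l1 are highest at 2 h. Both of Rpl22 lie below 0 h at the later times, while those of Rpl41, Rps24 and Rps20 go different ways.

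Probe sets of the same gene are the only repeat readings these arrays hold. Their spread also takes in what each probe set binds and how dim it is. It leaves out any difference between cultures, so it is not the error of a gene's difference. Around their gene's mean, single probe sets of 19 members had an SD of 0.38 at 2 h and 0.31 at 12 h on the log2 scale, against 0.32 and 0.34 over all genes with several probe sets. Among member probe sets with a mean signal of at least 1000 it was 0.21 at 2 h and 0.12 at 12 h. Of the 19 members with several measured probe sets, all probe sets had the same sign in 6 at 2 h and in 12 at 12 h.

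A further 102 probe sets are annotated to several genes of which at least 1 fits the name rule, most often a ribosomal protein gene and its pseudogenes. They are given as a group, since the gene behind the signal is not settled. Of 97 measured at 2 h, 93 lay within 1.5-fold of 0 h, with a median of -0.05, 2 were higher and 2 lower. Of 98 at 12 h, 95 lay within 1.5-fold, with a median of 0.03, none was higher and 3 were lower, 2 of them by more than 2-fold (lowest -1.24).

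The remaining genes of the translation apparatus were read from lists written for this purpose. Rpsa and Fau, ribosomal protein genes outside the name rule, were at -0.17 and -0.03 at 2 h and at 0.11 and -0.14 at 12 h. Of 16 other genes with TOP mRNAs, none was 1.5-fold apart at either time, and their medians were -0.06 and 0.00. Eef1a1, the main elongation factor, had 7883, 7150 and 7948, and Tpt1 had 6040, 5332 and 6046, both lowest at 2 h. Eif4b, which helps the helicase eIF4A, had 1047, 815 and 728, lowest at 12 h. Of 28 initiation factor genes, 1 was 1.5-fold higher at 2 h (Eif1a, 1.65-fold), 1 was lower (Eif2b5, 1.58-fold) and none was past that fold at 12 h, with medians of 0.02 and 0.13.

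Of 101 ribosome biogenesis genes, 4 were at least 1.5-fold higher and 3 lower at 2 h, and 4 higher and 5 lower at 12 h. Their medians were 0.01 and 0.07. Rrp9, a protein of the U3 small nucleolar particle, stood apart at 36.6, 178 and 147, or 4.86-fold higher at 2 h, from a 0 h signal close to the floor. Brix1 was 1.66-fold and Rrs1 1.56-fold higher at 2 h, and Nle1 was 2.01-fold lower. Among 16 measured regulators around mTORC1 and Myc at 2 h, only Myc, a transcription factor that drives ribosome production, was at least 1.5-fold higher. Its signals were 59.1, 656 and 533. Sesn1, an mTORC1 inhibitor, had 249, 96.2 and 92.9. At 12 h Myc remained the only higher one of 15, and 4 were lower, namely Sesn1, Pdcd4, Mxi1 and Deptor. Pdcd4 was under the floor at 12 h, and its value is a bound, at least 2.37-fold lower. Deptor was under it at both later times, at least 1.72-fold lower.

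Mitochondrial ribosomal protein genes, which serve a separate ribosome inside mitochondria, are the most similar family by function. Of 74 measured, 1 was at least 1.5-fold higher and 5 lower at 2 h, and 2 higher and 6 lower at 12 h, with medians of -0.16 and -0.12. The corresponding medians of the cytosolic family were -0.12 and -0.02, and of the brightest 10% of all named genes 0.01 and 0.01. The difference between the 2 families could not be tested with 1 array per time. Mrps15 had 474, 312 and 237, and Mrpl52 had 367, 538 and 724, so the mitochondrial list held members in both directions at 12 h.

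**Figure D4:**
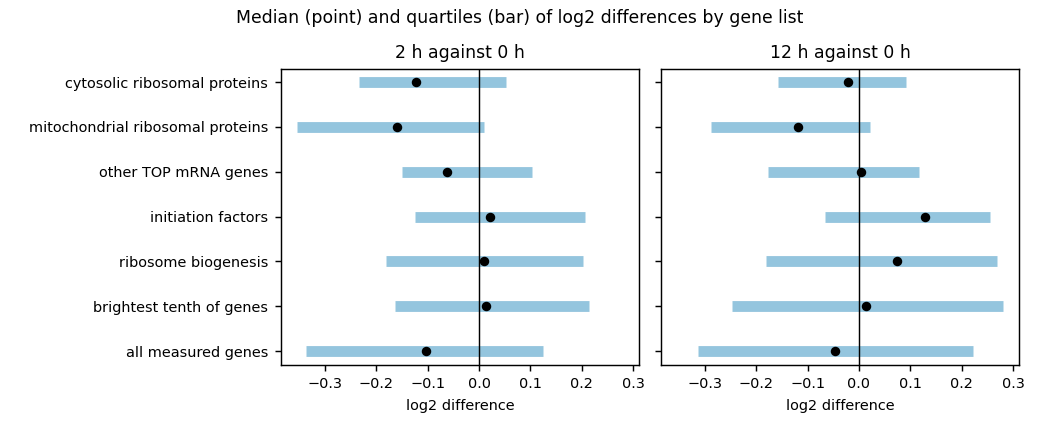
Median (point) and lower and upper quartile (bar) of the log2 difference at 2 h and 12 h against 0 h over the measured genes of each list. Cytosolic ribosomal protein genes sit at -0.12 and -0.02 with bars narrower than those of all measured genes, which sit at -0.10 and -0.05. The bars of the other lists shown are also narrower than those of all measured genes.

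The arrays differed in their controls. All 12 macrophage markers were at or above the floor, and of the markers of T cells, B cells, fibroblasts and erythroid cells, 16 of 19 were under it on every array, with summed signals between 40.9 and 163 per list and array. The T cell markers Cd3d, Cd3e and Cd3g and the B cell markers Cd79a, Cd79b and Pax5 were among those under it. The B cell marker Ms4a1 (54.6) and the erythroid marker Klf1 (36.3) were above the floor at 12 h only. The fibroblast marker Col1a2 was above the floor on each array, with signals between 38.6 and 64.5. The 3′ to 5′ signal ratio of the Gapdh control was 0.713, 0.665 and 0.677 at 0, 2 and 12 h and that of the Actb control 1.11, 0.984 and 1.08. The 18 control probe sets for RNA spiked into the target had a median ratio to 0 h of 0.990 at 2 h and 2.53 at 12 h, with every one at least 1.68-fold higher at 12 h. The part of this in the members' differences was not tested.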

How the data were processed

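The file the authors deposited holds 1 intensity, on a linear scale, per probe set and array (22690 probe sets, 64 of them controls, 3 arrays); per the labels, the target was made from 5 µg of total RNA by a modified Affymetrix procedure. For scanner software, summary method and scaling, the sources used here give nothing. The deposited arrays had trimmed means equal to within rounding (150.05). Names came from the platform annotation, updated through a RefSeq table (GRCm38.p6), where all 48 members matched. Values were rescaled to one 2% trimmed mean, floored at the 40th percentile and taken to log2. The probe set with the highest mean log2 signal stood for its gene. A fold of 2 is the call, with 1.5 as a second one. No p-value was computed. Members and lists were chosen with earlier results of these data known. Named members were those past 1.5-fold, the 3 highest and 3 lowest per comparison, those with opposed probe sets, the paralogs and a few set subunits; a few further names were picked as examples with their values in view. In other lists, up to 4 genes past 1.5-fold were named. The counting was tested on simulated arrays. Alternatives covered scaling, floor, pseudocount, probe set choice and member choice. Python 3.11.15, pandas 2.3.3 and numpy 2.4.6 were used. The number of arrays limits the precision.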

Additional observations from a re-analysis of the deposited data

Results flagged for a closer look

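The array also carries control probe sets for 18S ribosomal RNA, the RNA of the small ribosomal subunit, which no comparison above used. Their signals were above the 0 h array at 12 h. The ratio of 12 h to 0 h was 2.54 for the probe set at the 3′ end (signals 609.5 and 1545), 1.71 for the one at the 5′ end (214 and 366) and 1.33 for the middle one (338 and 448). At 2 h all 3 were below 0 h, at ratios of 0.705, 0.472 and 0.662. The spiked controls had a median ratio of 2.53 at 12 h and 0.990 at 2 h. The part of the spiked controls' shift in these values was not tested, nor was whether they follow the amount of 18S RNA.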

How the results depend on the processing

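Results were recomputed under 9 alternatives and 1 more chosen after seeing the data (members with a mean signal of at least 1000). The members' medians turned in sign with arrays set to one median (0.02 at 2 h, 0.02 at 12 h and -0.03 from 2 to 12 h), and from 2 to 12 h also under quantile normalization (-0.08; -0.10 at 2 h and -0.14 at 12 h) and without suffixed probe sets (-0.02). That last alternative left out every suffix, a as well as x and s. It kept 24 members, 19 of them measured at 2 h, and gave 0.00 at 2 h. Counts are small and shifted by 1 or 2. Set to one median, 2 members were 1.5-fold higher and 1 lower at 2 h, 1 was 2-fold higher, and at 12 h 2 were 1.5-fold higher and 0 lower. Quantile normalization gave 2 higher at 12 h. A pseudocount gave 1 lower at 2 h and 0 at 12 h. The median over probe sets gave 0 higher and 1 lower at 2 h, and 1 member 2-fold lower at 12 h (Rpl22, -1.25). That Rpl22 value takes in a dim probe set close to the floor at 12 h. From 2 to 12 h the median over probe sets gave 1 member 1.5-fold lower and 0 2-fold higher. Without suffixed probe sets 4 of 19 measured members were 1.5-fold lower at 2 h, against 2 of 44 with them. The added ones, Rpl41 and Rps10, were then read by dim probe sets near the floor. These went from 90.7 at 0 h to 38.9 at 2 h and from 66.0 to 43.6. No other probe set of either gene was 1.5-fold lower at 2 h. At 2 h 1 was 2-fold higher (Rps24) and 1 lower (Rpl41), and 1 was 2-fold higher at 12 h (Rps24). Rps24 was then read by a probe set with a 0 h signal of 36.0, close to the floor. The share of all genes past these folds was not recounted under any of the alternatives. The members' share of summed signal was then 1.01%, 0.952% and 0.961%. Among the brighter members 0 were lower at 2 h, and 0 were 1.5-fold or 2-fold higher from 2 to 12 h. Rpl41 reversed to -1.22 at 2 h and -0.41 at 12 h without suffixed probe sets, and to -0.19 at 12 h by the median over probe sets. In each case other probe sets are read. No paired analysis was possible because each time had 1 array.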

Other observations

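Outside the family, the genes whose differences from 0 h at both times lay nearest the members' medians, by root mean square distance over 2 comparisons among 7274 genes above the floor on all arrays, were Nxf1, Mbd1, Lig3, Zcchc9 and Crbn, at distances of 0.0041 to 0.0098 on the log2 scale. Nxf1, an mRNA export receptor gene, had signals of 246, 225 and 242. With values so close to 0, many genes lie near this point.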
